A study of Mus musculus with 16 samples.

Results

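The comparison described here is the effect of ertugliflozin on left ventricular gene expression in mice fed a low-fat control diet (CD). Its members are 8 of the 16 libraries in the study, chosen by diet and drug from the labels: 4 from CD mice that received ertugliflozin and 4 from CD mice that did not. Of 53764 Ensembl genes in the count table, 15841 had enough reads to be tested. All mice were male C57BL/6J animals that were 8 weeks old when the diets began and stayed on them for 4 months. The drug was mixed into the food at 0.5 mg per g of diet and eaten ad libitum. The remaining 8 libraries, 4 with and 4 without the drug, came from mice on a high-fat, high-sucrose diet (HFHS), a feeding model of diabetes. Left ventricles were snap frozen, and poly(A) RNA was made into libraries that keep strand. Each library is 1 mouse, and the submitters selected the 4 mice of each group as representative of a larger number, so replicate error here is the variation among selected animals.

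Ertugliflozin inhibits the sodium-glucose cotransporter SGLT2, which reabsorbs filtered glucose in the kidney tubule, and the resulting glucose loss in urine shifts whole-body fuel use towards fat and ketone bodies. The genes that ranked highest belong to another system. Interferons bind cell-surface receptors and act through STAT transcription factors on promoter elements named GAS (the gamma-activated site) and ISRE (the interferon-stimulated response element). Among the targets most strongly induced by interferon-gamma in the mouse are the immunity-related GTPases (IRGs) and guanylate-binding proteins (GBPs), which attack the membranes around intracellular pathogens, and the class I antigen presentation machinery, which displays peptides to cytotoxic T cells.

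The promoter letters of some IRG genes and of Gbp3 are shown because several IRG genes carry both elements in the same arrangement. Each line below is a window of 60 bases upstream of the annotated start, read 5′ to 3′ on the gene's strand, from RefSeq on GRCm38.p6. Capitals mark matches to GAS, searched as TTCNNNGAA, which reads the same on both strands, and to ISRE, searched on either strand as GAAA, 2 bases of any kind and GAAA again. Tgtp1 lies at chr11:48992290-48992349 (minus strand), Tgtp2 at chr11:49064249-49064308 (minus), Igtp at chr11:58199496-58199555 (plus), Irgm2 at chr11:58214887-58214946 (plus), Irgm1 at chr11:48871421-48871480 (minus) and Gbp3 at chr3:142559984-142560043 (plus).
Tgtp1: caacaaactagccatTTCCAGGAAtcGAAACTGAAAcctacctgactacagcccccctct
Tgtp2: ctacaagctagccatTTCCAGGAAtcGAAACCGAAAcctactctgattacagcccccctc
Igtp: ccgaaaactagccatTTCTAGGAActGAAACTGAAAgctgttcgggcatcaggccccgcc
Irgm2: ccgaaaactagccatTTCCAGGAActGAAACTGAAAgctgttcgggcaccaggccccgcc
Irgm1: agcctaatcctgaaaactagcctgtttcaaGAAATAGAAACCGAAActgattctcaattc
Gbp3: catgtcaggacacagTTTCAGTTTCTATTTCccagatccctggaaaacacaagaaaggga

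In the first 4 windows a GAS match is followed, after 2 bases, by an ISRE match. The Irgm1 and Gbp3 windows hold overlapping ISRE matches and no GAS match, and Irgm1 was named after its values were seen. Across 32851 promoters, in the 250 bases before the start, 7.02% held GAS, 2.98% held ISRE and 0.332% held both. The close arrangement of both, sought on either strand and chosen after the letters were seen, occurred in 5 promoters (0.0152%): Tgtp1, Tgtp2, Igtp, Irgm2 and Gm12185, a gene of the same chromosome 11 cluster. All 5 lie on chromosome 11, and the first base of the pair lay 88, 81, 45, 75 and 86 bases before the start, respectively. Of the 9 IRG-list members with a promoter sequence, 5 held GAS and 6 held ISRE. Among 5 GBP-list promoters the counts were 2 and 5, and among 19 class I promoters they were 2 and 3. The promoters of Cd274, Tap1, H2-Q7, H2-Q4 and Ehhadh, which are not shown, held 0 GAS and 0 ISRE matches. No promoter was read singly for Iigp1, Nlrc5, Gbp4 or Fgf16. Promoters on chromosome 18, where Iigp1 lies, were left out of the single reading but not of the counts over lists and over all promoters. A match describes letters and is not shown to be a bound site.

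Ertugliflozin raised 3 genes in the CD hearts, Tgtp2, Iigp1 and Igtp, all of them IRGs. They are 0.0189% of the genes tested, by edgeR's quasi-likelihood test at a Benjamini-Hochberg adjusted p under 0.05. No gene passed the threshold in the lower direction, where 497 genes (3.14%) had an unadjusted p under 0.05 and DESeq2 likewise called 0 genes. In the higher direction 481 genes (3.04%) had an unadjusted p under 0.05, which made 978 (6.17%) in all. Both directions were close to balanced: 51.7% of tested genes had a fold change above 0 and 48.3% below it, and the median log2 fold change over all genes was 0.0041. The highest ranks were not balanced. All 10 genes with the smallest p were higher with the drug, and 8 of them belonged to an interferon-related list. Among the 20 smallest, 11 belonged to such a list and 15 were higher, and among the 50 smallest, 16 belonged and 29 were higher. The interferon-related lists held 114 of the 15841 genes tested. They were written with earlier results of these data known, so the counts of members describe the ranking and do not test it.

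**Figure D1:**
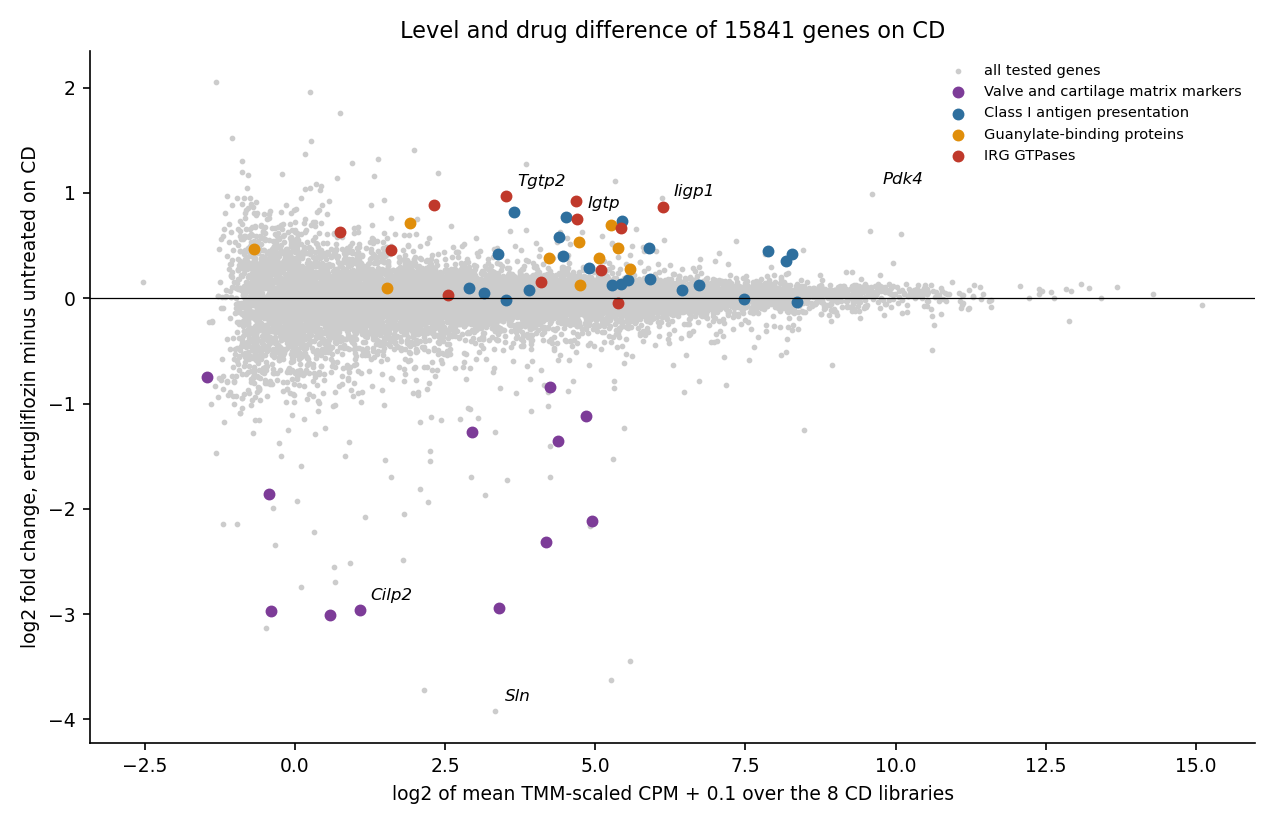
Log2 fold change of ertugliflozin against untreated CD hearts (y axis) against log2 mean CPM (a gene's reads scaled to the same total in every library, x axis) for every gene tested, 4 libraries per group. Most genes lie close to 0 whatever their level, and the genes past the test, Tgtp2, Iigp1 and Igtp, lie above the cloud at moderate expression. Coloured points are members of 4 gene lists, of which the valve and cartilage matrix genes lie below 0.

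Tgtp2 (T-cell-specific guanine nucleotide triphosphate-binding protein 2; ENSMUSG00000078921; chr11:49057194-49064206, minus strand, GRCm38) encodes an effector IRG that coats pathogen vacuoles. Levels in CPM, the gene's read count scaled to a common library total after TMM normalization, were 6.66, 8.40, 8.95 and 6.70 in the untreated CD libraries. With the drug they were 15.2, 18.2, 13.1 and 13.8. The lowest treated library was above the highest untreated one. The mean went from 7.68 ± 1.17 to 15.1 ± 2.26 CPM (SD, n = 4 each). The log2 fold change was 0.97, with an SE of 0.14 (edgeR adjusted p = 0.0202).

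Iigp1 (ENSMUSG00000054072; chr18:60376027-60392634, plus strand) encodes the effector IRG also called Irga6. Untreated CD libraries gave 53.4, 45.6, 53.7 and 45.6 CPM. Treated libraries gave 89.8, 109, 90.2 and 73.2 CPM. The groups did not overlap. Its mean rose from 49.6 ± 4.60 to 90.5 ± 14.64 CPM (SD, n = 4 each). The log2 fold change was 0.87, with an SE of 0.12 (edgeR adjusted p = 0.0202).

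Igtp (ENSMUSG00000078853; chr11:58199556-58207591, plus strand) encodes the regulatory IRG also known as Irgm3, which sits on host membranes and keeps effector IRGs from loading there. It stood at 20.4, 16.5, 21.4 and 18.6 CPM without the drug. With the drug it stood at 27.1, 34.3, 38.5 and 29.98 CPM, again with no overlap. The mean rose from 19.2 ± 2.14 to 32.5 ± 5.02 CPM (SD, n = 4 each). The log2 fold change was 0.76, with an SE of 0.12 (edgeR adjusted p = 0.0283). Errors after a log2 fold change are SEs throughout. Irgm2, a second regulatory IRG and the next gene by p, gave 32.0, 29.6, 37.6 and 33.3 CPM untreated and 47.3, 58.2, 61.9 and 43.1 CPM treated. Its log2 fold change was 0.67 ± 0.11 (edgeR adjusted p = 0.0693), so it missed the threshold although its groups did not overlap.

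DESeq2 called 10 genes higher, these 3 among them, with Irgm2, Gbp4, Nlrc5, Tap1, H2-Q7, Cd274 and Fgf16. Of the 8 refits that each left out 1 CD library, Tgtp2 stayed past the threshold in 3, Igtp in 3 and Iigp1 in 2. The edgeR adjusted p of Tgtp2 was 0.102 without CD untreated replicate 1, 0.11 without replicate 2 and 0.0524 without replicate 4. It was 0.0624 without CD ertugliflozin replicate 1 and 0.0805 without replicate 2. Iigp1 lost its call in the same 5 refits and also without CD ertugliflozin replicate 3 (adjusted p = 0.0931), with adjusted p of 0.102, 0.168, 0.0564, 0.0624 and 0.0742 in the order given for Tgtp2. Igtp lost its call without CD untreated replicates 1, 2 and 4 (adjusted p = 0.102, 0.201 and 0.0610) and without CD ertugliflozin replicates 2 and 3 (0.112 and 0.0981). Over these refits the log2 fold change stayed above 0 for all 3 genes, between 0.87 and 1.05 for Tgtp2, 0.77 and 0.96 for Iigp1, and 0.66 and 0.84 for Igtp. Tgtp2 and its neighbour Tgtp1 are close copies whose reads the counting could have split. Igtp and Irgm2 overlap on the same strand, with 162 exonic bases in common, so the counts of these 4 genes are uncertain between partners.

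**Figure D2:**
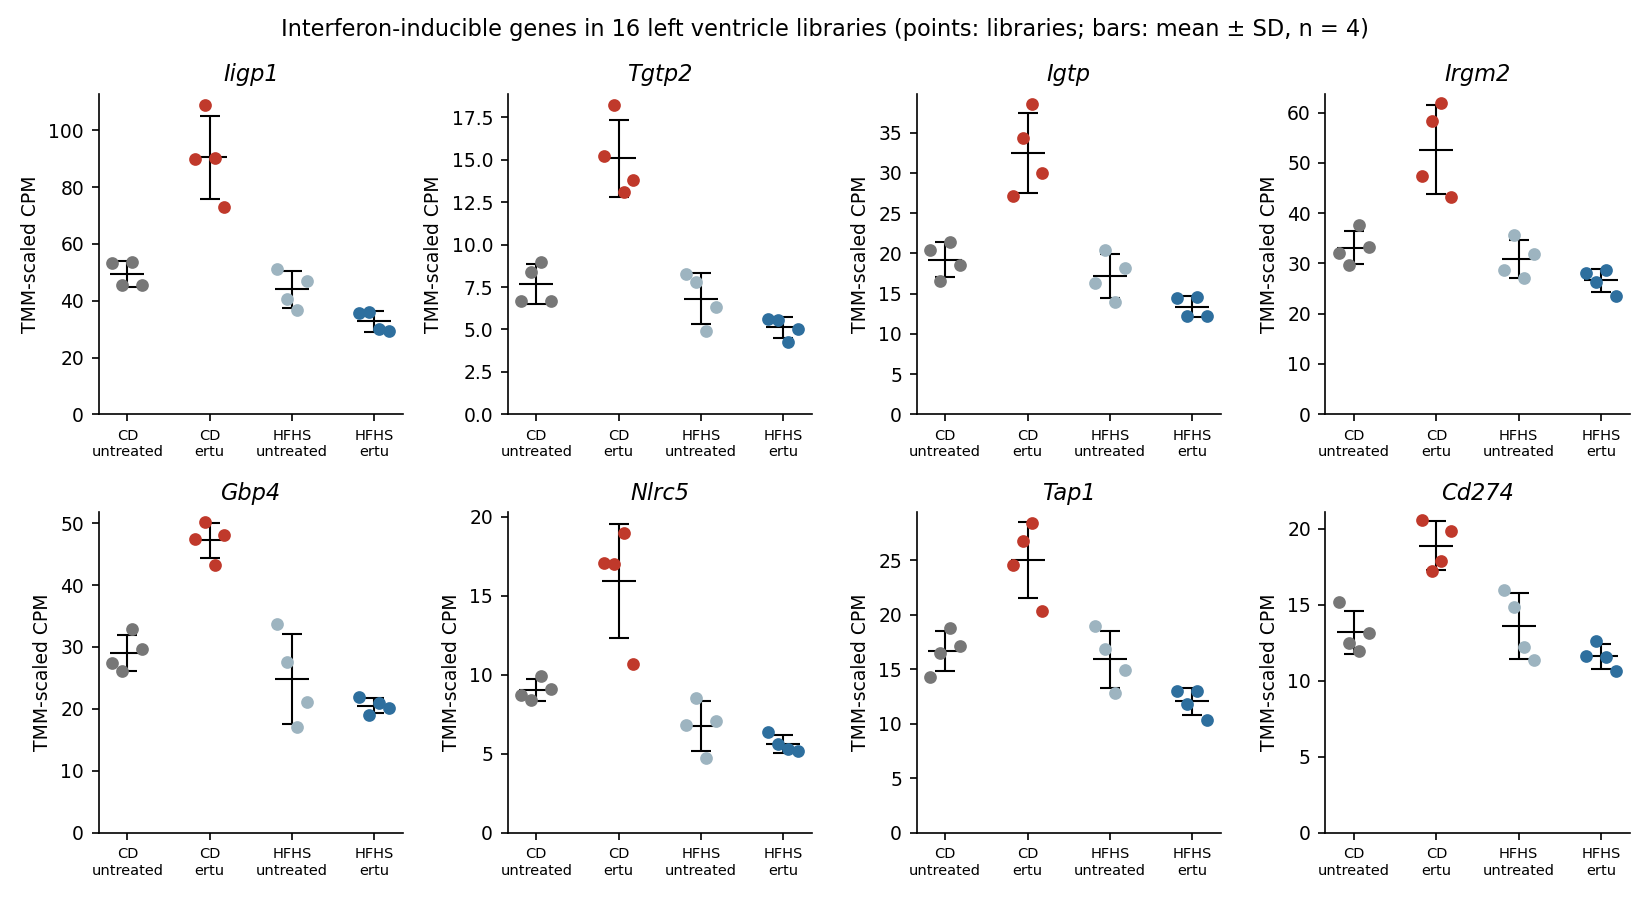
CPM (y axis) of 8 interferon-inducible genes in each of the 16 libraries, by diet and drug; points are libraries and bars are mean and SD of 4. For each of the 8 genes, Tgtp2, Iigp1, Igtp, Irgm2, Gbp4, Nlrc5, Tap1 and Cd274, the 4 CD ertugliflozin libraries stand above the 12 others.

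The whole IRG list pointed in the same direction. Of 13 genes listed, 12 were tested, and the 1 left out had too few reads. Of the 12, 11 had a higher mean with the drug and 9 had an unadjusted p under 0.05 in that direction (beside 3.04% of all genes), none in the other. In 7 the groups did not overlap, against 1.78% of all genes tested. The list's median log2 fold change was 0.65, beside 0.0041 for all genes, and its summed level ran from 213 to 251 CPM in untreated CD libraries and from 296 to 367 CPM in treated ones. Tgtp1 was 3.17, 3.16, 3.64 and 3.74 CPM untreated and 7.09, 8.73, 5.84 and 3.74 CPM treated. CD ertugliflozin replicate 4 therefore matched the untreated libraries for that gene, and the fold change of 0.88 ± 0.22 had an edgeR adjusted p of 0.640. When the reads of Tgtp1 and Tgtp2 were added together, a check chosen after seeing the data, the log2 fold change of the sum was 0.94 ± 0.16 (edgeR adjusted p = 0.0741). Irgm1, a regulatory IRG that guards lysosomes and is needed for resistance to mycobacteria, had a log2 fold change of 0.26 ± 0.09 (unadjusted p = 0.0106). Gm12185, named after its values were seen, went from a mean of 1.247 to 1.93 CPM (0.63 ± 0.25, unadjusted p = 0.0226).

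The members of the GBP list, large GTPases that assemble on pathogen membranes and support inflammasome activation, were also mostly higher. Of 12 listed genes, 10 were tested, 7 had an unadjusted p under 0.05 in the higher direction and 0 in the lower, and 7 did not overlap. The matching shares over all genes were 3.04%, 3.14% and 1.78%. The median log2 fold change was 0.42. None passed the adjusted threshold. Gbp4 was 27.4, 26.2, 32.8 and 29.8 CPM without the drug. It was 47.4, 50.2, 43.3 and 48.0 CPM with it, without overlap, and the log2 fold change was 0.70 ± 0.14 (edgeR adjusted p = 0.318). The other named members were Gvin1, a very large interferon-inducible GTPase (mean 2.79 to 4.60 CPM, 0.72 ± 0.17), Gbp3 (21.6 to 31.5 CPM, 0.54 ± 0.13) and Gbp5 (16.2 to 21.1 CPM, 0.38 ± 0.09). Their adjusted p by edgeR were 0.573, 0.640 and 0.497.

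In the class I antigen presentation list, all 23 genes were tested, 20 had a higher mean with the drug, and 14 had an unadjusted p under 0.05 in that direction against 0 in the other. In 10 the groups did not overlap, and the median log2 fold change was 0.18. Over all genes, 3.04% were higher at that p and 1.78% were higher without overlap. Without CD ertugliflozin replicate 3 the count of 14 was 8. Nlrc5, the transcriptional coactivator of class I genes, measured 8.69, 8.40, 9.94 and 9.10 CPM in the untreated libraries. With the drug it measured 17.1, 17.0, 19 and 10.7 CPM, so 3 libraries stood well above the fourth, which itself was above all untreated ones. Its log2 fold change was 0.82 ± 0.16 (edgeR adjusted p = 0.199). Tap1, a subunit of the transporter that carries peptides into the endoplasmic reticulum, measured 14.3, 16.5, 18.8 and 17.1 CPM untreated and 24.6, 26.8, 28.4 and 20.4 CPM treated (0.58 ± 0.12, edgeR adjusted p = 0.245). Its exons share 212 bases with those of Psmb9 on the other strand. The class I heavy chains H2-Q7 (mean 16.7 to 28.6 CPM, 0.78 ± 0.19) and H2-Q4 (49.3 to 68.8 CPM, 0.48 ± 0.12) had edgeR adjusted p of 0.647 and 0.648, and both belong to a cluster of near-identical genes in which reads can be split.

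Class II antigen presentation, which serves helper T cells and is carried by macrophages, dendritic cells and B cells, was less uniform. All 10 tested members of 11 had a higher mean, with a median log2 fold change of 0.37, yet 0 had an unadjusted p under 0.05 and in 0 were the groups separate. Without CD ertugliflozin replicate 4 that count was 3, without CD ertugliflozin replicate 1 it was 2, and without CD untreated replicate 3 it was 1. H2-Aa measured 51.4, 57.1, 70.4 and 51.1 CPM untreated and 57.3, 106, 123 and 51.1 CPM treated. The higher mean therefore came from CD ertugliflozin replicates 2 and 3, and the log2 fold change was 0.55 ± 0.30 (unadjusted p = 0.0896). H2-Ab1, the partner chain, was similar (0.50 ± 0.32).

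The wider interferon-gamma list of receptors, regulators and response genes had 22 of 25 members tested, 5 with an unadjusted p under 0.05 in the higher direction and 0 in the lower, 3 without overlap and a median of 0.13. Beside these counts stand 3.04%, 3.14% and 1.78% of all genes. The count of 5 was 2 without CD untreated replicate 2 or CD ertugliflozin replicate 3, and 3 without CD untreated replicate 4 or CD ertugliflozin replicate 1. Cd274, which encodes the checkpoint ligand PD-L1, measured 15.2, 12.5, 12.0 and 13.1 CPM untreated. It measured 20.6, 17.2, 17.9 and 19.9 CPM treated, without overlap (0.52 ± 0.10, edgeR adjusted p = 0.199). Values for Wars, the tryptophanyl-tRNA synthetase, and Samhd1, which hydrolyses deoxynucleotides, were 0.11 ± 0.05 and 0.12 ± 0.05. Of 37 genes known chiefly as targets of type I interferon, 36 were tested, 28 had a higher mean, 2 had an unadjusted p under 0.05 in that direction and 0 in the other, and the median was 0.08. That 2 of 36 is not far from the 3.04% of all genes. These values depended on single libraries: the count of 2 became 6 and the median 0.18 without CD untreated replicate 3, the count 4 without CD ertugliflozin replicate 4, and the count 1 without CD untreated replicate 1 or CD ertugliflozin replicate 3. The smallest p there belonged to Stat2, a subunit of the type I transcription complex (mean 26.2 to 32.0 CPM, 0.29 ± 0.08, unadjusted p = 0.00229), and Zbp1, a nucleic acid sensor (1.76 to 2.89 CPM, 0.70 ± 0.27, unadjusted p = 0.0181).

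**Figure D3:**
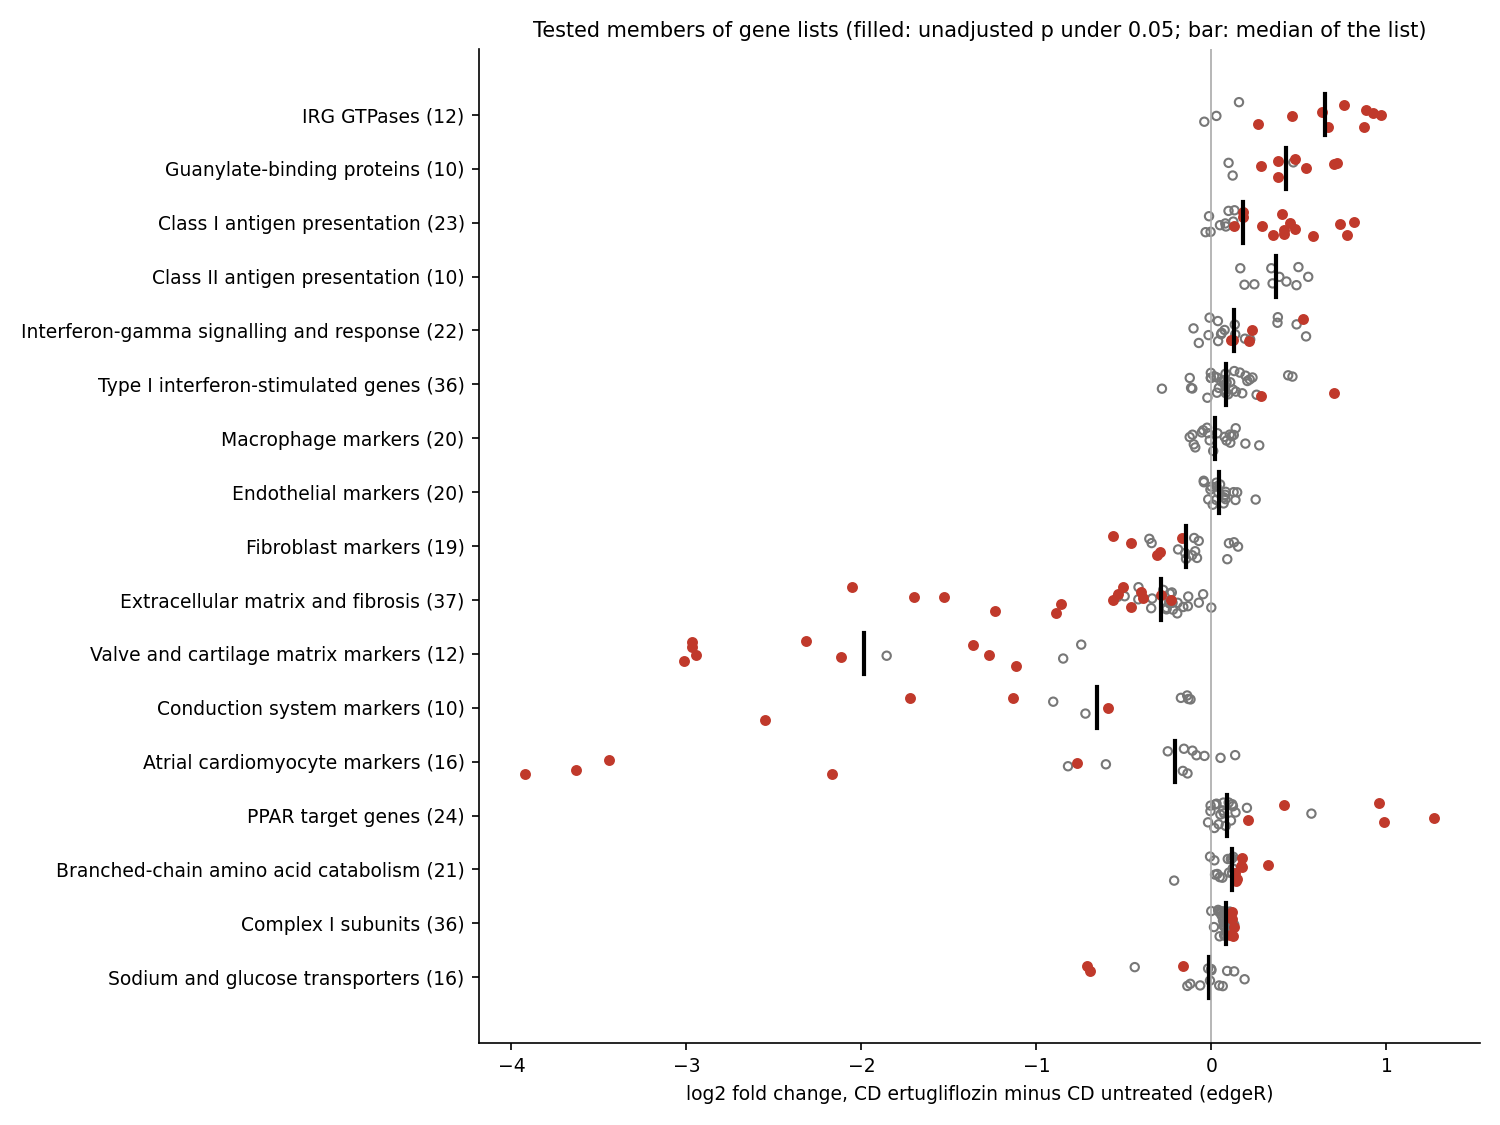
Log2 fold change of ertugliflozin against untreated CD hearts (x axis) for each tested member of 17 gene lists (rows); each point is a gene. IRG, GBP and class I members lie mainly above 0, and valve, conduction and matrix members mainly below it.

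Interferon transcripts themselves were at the floor of detection. Ifng had 0 to 2 reads in each CD library, 3 in all untreated and 2 in all treated libraries, and Ifnb1 had 0 reads in every one. In bulk tissue, a change in the number of cells of a type and a change in RNA per cell cannot be told apart, so markers of immune cells were read beside the interferon genes. For T cells, Cd3e had 2 to 10 reads per library, 16 untreated against 17 treated in total. Of the T and natural killer cell list only 3 of 20 members had enough reads to be tested. The natural killer markers Nkg7 and Ncr1 had 10 against 19 and 10 against 23 reads. Among 20 macrophage markers, 0 had an unadjusted p under 0.05 in either direction, 11 were higher, and the median was 0.02. Without CD untreated replicate 2 the median was 0.13, with 16 of 20 higher, and without both CD untreated replicates 2 and 3 it was 0.17, with 18 higher and 4 at an unadjusted p under 0.05. When other single libraries were left out the median lay between −0.04 and 0.09. B and plasma cell markers had 9 of 12 members tested, 3 with an unadjusted p under 0.05 in the higher direction (beside 3.04% of all genes), 0 without overlap and a median of 0.37. Those 3 were Cd22 (0.80 ± 0.31), Igkc (0.69 ± 0.27) and Ighm (0.33 ± 0.14), a B cell receptor partner and 2 immunoglobulin constant regions. The count of 3 became 0 without CD untreated replicate 3, 1 without CD ertugliflozin replicate 1, 6 without CD ertugliflozin replicate 2 and 1 with the CD libraries alone. Among 20 endothelial markers the corresponding count was 0 and the median 0.04. The part of any of these cells in the interferon gene result was not tested.

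On the HFHS diet the same 3 genes had lower means with the drug than without it. There, edgeR called 0 genes, with 637 (4.02%) at an unadjusted p under 0.05, 263 (1.66%) higher and 374 (2.36%) lower, and 49.8% of genes had a fold change below 0. Tgtp2 measured 8.24, 7.79, 4.91 and 6.30 CPM in untreated HFHS hearts and 5.63, 5.57, 4.28 and 5.05 CPM in treated ones (log2 fold change −0.41 ± 0.16). Iigp1 measured 51.4, 40.8, 36.6 and 47.1 CPM untreated and 35.9, 36.1, 30.1 and 29.2 CPM treated (−0.42 ± 0.13). Igtp measured 16.4, 20.4, 14.0 and 18.2 CPM untreated and 14.5, 12.3, 14.5 and 12.2 CPM treated (−0.37 ± 0.13). For each of the 3 genes, the untreated HFHS values overlapped the untreated CD values, the treated HFHS values were all below them, and the CD ertugliflozin libraries stood above the 12 others.

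The difference between the 2 drug effects was itself tested, and it passed the threshold for the same 3 genes (0.0189% of those tested). The CD effect exceeded the HFHS effect by 1.38 ± 0.22 for Tgtp2, 1.29 ± 0.17 for Iigp1 and 1.13 ± 0.17 for Igtp on the log2 scale (edgeR adjusted p = 0.0219 for each). Irgm2 differed by 0.88 ± 0.16 (edgeR adjusted p = 0.122) and the adjusted p for Tap1 was 0.0809. At an unadjusted p under 0.05, where 4.27% of all genes differed and 2.34% had the larger effect on CD, 9 of 12 IRG members, 7 of 10 GBP members, 17 of 23 class I members and 23 of 36 type I interferon genes differed. The lists got there in different ways. IRG members had a median of 0.65 on CD and −0.25 on HFHS, with 12 of 12 lower on HFHS. Type I interferon genes had 0.08 on CD and −0.47 on HFHS, where all 36 were lower and 27 had an unadjusted p under 0.05.

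Over the whole table, 54 genes (0.341%) had all 4 CD ertugliflozin libraries above the 12 others, and 13 (0.0821%) had them all below. Of the 54, 19 were among the 114 tested genes of the interferon lists. By list, these were 6 of 12 IRG, 2 of 10 GBP, 8 of 23 class I, 2 of 22 interferon-gamma and 1 of 36 type I members, with 0 of 10 for class II. A further 30 of the 54 were in none of the lists.

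**Figure D4:**
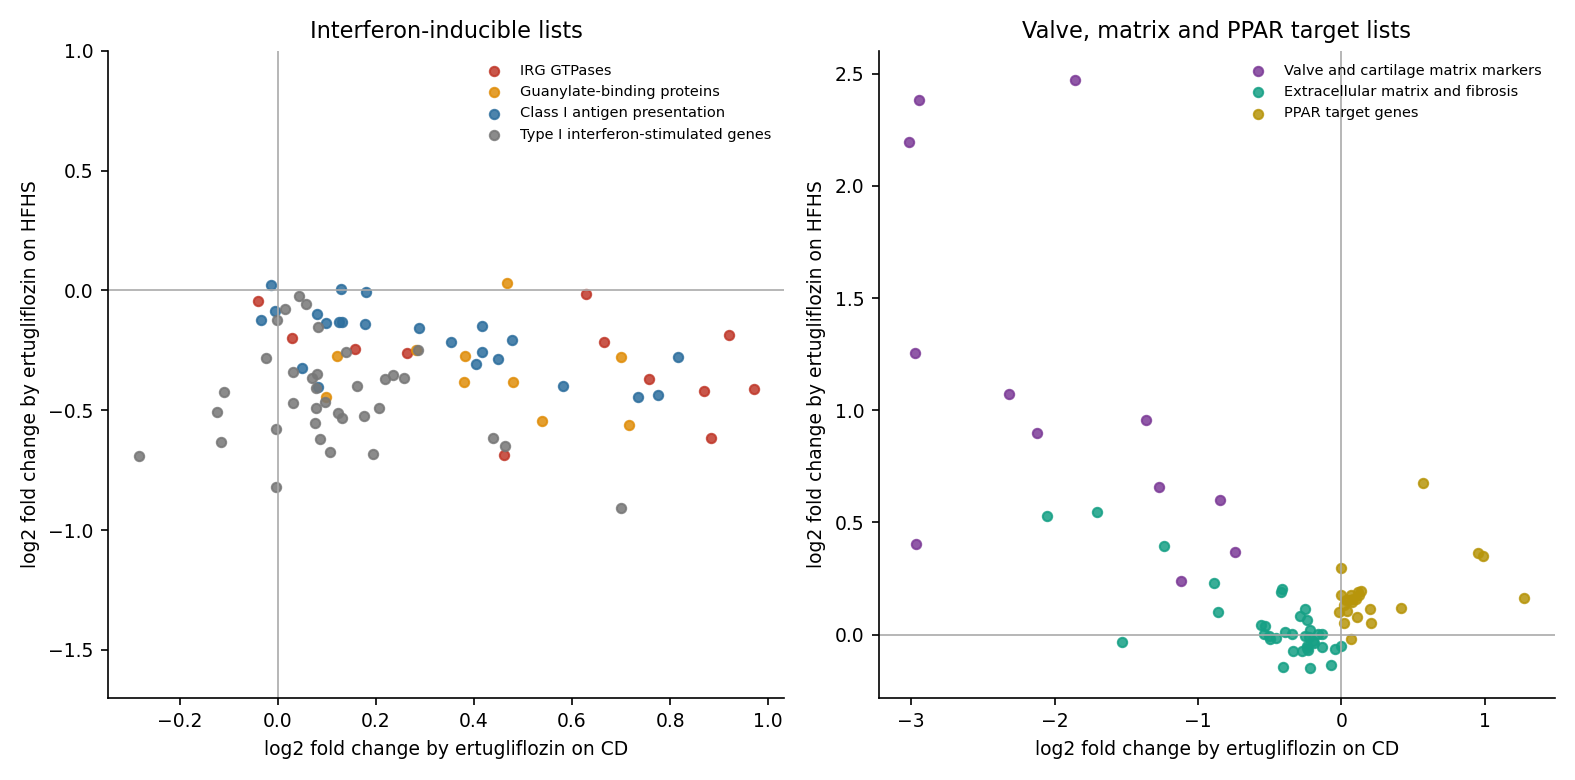
Log2 fold change of ertugliflozin on HFHS (y axis) against that on CD (x axis), each from 4 treated and 4 untreated libraries, with interferon-related list members in one panel and valve, matrix and PPAR target members in the other. Tgtp2, Iigp1 and Igtp lie to the right of 0 on CD and below 0 on HFHS.

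Genes beside the 3 that rose were examined within 100000 bases on GRCm38, and the neighbours below, other than Irgm2 and Tgtp1, were named after their values were seen. Over all genes, 3.04% had an unadjusted p under 0.05 in the higher direction. Near Iigp1, 2 of 3 tested neighbours did. They were F830016B08Rik, an IRG-like gene (mean 17.7 to 33.4 CPM, 0.92 ± 0.24), and the processed pseudogene BC023105 (2.09 to 5.58 CPM, 1.41 ± 0.37). Near Igtp the count was 2 of 6, Irgm2 and Gm12250, which the annotation used here labels a processed pseudogene (1.63 to 3.02 CPM, 0.88 ± 0.26). Near Tgtp2 it was 3 of 7, Tgtp1, Gm12185 and Ifi47, an interferon-gamma-inducible IRG (5.42 to 7.41 CPM, 0.44 ± 0.17). These neighbours are relatives of the genes they flank, and reads that match more than one copy leave their single values uncertain. Irgm2 and Tgtp1 were already counted in the IRG list, so these counts are not separate from that result.

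Lists that mark heart valve, atrium and conduction tissue had lower means after the drug. Valve and atrium adjoin the left ventricle, while conduction fibres also run within its wall. None of these genes passed the adjusted threshold. All 12 tested members of the 17 valve and cartilage-like matrix genes were lower, 9 with an unadjusted p under 0.05 (beside 3.14% of all genes), with a median log2 fold change of −1.99. In 1 of them the groups did not overlap, against 1.29% of all genes. Cilp2, a cartilage matrix protein, measured 4.76, 5.56, 3.33 and 0.614 CPM untreated and 0.104, 0.596, 1.07 and 0.0506 CPM treated, a log2 fold change of −2.97 ± 0.76. Hapln1, which links hyaluronan to proteoglycans, had means of 1.17 and 0.148 CPM without overlap (−2.97 ± 0.73). Prg4, the lubricant proteoglycan of joints, and Wif1, a secreted Wnt inhibitor, had −1.12 ± 0.30 and −1.27 ± 0.44. On HFHS the valve list's median was 0.93 in the other direction, and for 11 of the 12 members the difference between the diets had an unadjusted p under 0.05, where 1.93% of all genes had the lower effect on CD.

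Atrial and conduction genes were lower on average, with large gaps between single libraries. Of 16 atrial markers tested, 14 had a lower mean, 5 of them at an unadjusted p under 0.05 (median −0.21). All 10 conduction markers had a lower mean, 4 at an unadjusted p under 0.05 (median −0.66), and 2 did not overlap. Over all genes, 3.14% were lower at that p and 1.29% were lower without overlap. Without CD untreated replicate 1 the counts were 2 for each list, with medians of −0.11 and −0.20. The conduction count was also 2 without CD untreated replicate 2 and without CD ertugliflozin replicate 1, 2 or 3. Myl4, the atrial essential light chain, measured 285, 30.6, 26.1 and 9.04 CPM untreated and 2.35, 6.72, 21.499 and 1.62 CPM treated, so most of its untreated mean came from CD untreated replicate 1. The log2 fold change was −3.44 ± 1.12. Sln, the atrial regulator of the calcium pump, and Dkk3 had −3.92 ± 1.36 and −2.17 ± 0.76. The calcium channel subunits Cacna2d2 and Cacna1d had −1.13 ± 0.33 and −0.77 ± 0.26, and Cpne5, a calcium-dependent membrane-binding copine, went from a mean of 2.54 to 0.421 CPM without overlap (−2.55 ± 0.65). By contrast the ventricular marker list summed to 104325 to 116381 CPM untreated and 104981 to 116983 CPM treated, with a median of 0.04.

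Extracellular matrix genes were lower throughout, with all 37 tested members of 38 below 0, 14 at an unadjusted p under 0.05, a median of −0.29 and 0 without overlap. For this and the lists that follow here, 3.14% of all genes were lower at that p. Col1a1, the main chain of fibrillar collagen, measured 136, 209, 209 and 119 CPM untreated and 101, 121, 145 and 88.6 CPM treated (−0.56 ± 0.21). Other members were Col11a2 (−0.86 ± 0.24), the matricellular protein Postn (−0.89 ± 0.35), the latent TGF-beta binding protein Ltbp2 (−1.7 ± 0.61) and thrombospondin Thbs1 (−1.53 ± 0.55). Fibroblast markers had 15 of 19 lower, 5 at an unadjusted p under 0.05, with a median of −0.15. That count of 5 was 0 without CD untreated replicate 2, CD ertugliflozin replicate 1 or CD ertugliflozin replicate 4, 2 without CD untreated replicate 3, and 8 without CD untreated replicate 4 or CD ertugliflozin replicate 3. The fetal genes Myh7, the slow myosin heavy chain (285, 604, 704 and 403 CPM untreated, and 171, 266, 321 and 83.3 CPM treated, −1.25 ± 0.49), and Nppa, atrial natriuretic peptide (−0.82 ± 0.44), were in a list with all 11 tested members lower, 2 at an unadjusted p under 0.05, and a median of −0.54. Leaving out 1 library gave 1 to 6 such fetal genes, with 6 without CD untreated replicate 4, 4 without CD ertugliflozin replicate 2 or 3, and 1 without CD untreated replicate 2 or CD ertugliflozin replicate 4. Leaving out CD untreated replicates 2 and 3 together gave 0. Some stress-responsive genes also had lower means. In the heat shock list 4 of 16 were lower at an unadjusted p under 0.05, among them the close copies Hspa1a (−1.55 ± 0.49) and Hspa1b (−1.81 ± 0.60), and in the immediate early list 4 of 19 were, among them Egr3 (−0.87 ± 0.27), Egr2 (−1.24 ± 0.39) and Atf3 (−1.27 ± 0.45). Without CD untreated replicate 4 these counts were 9 and 10, and without both CD untreated replicates 2 and 3 they were 0 and 2. The count over the whole table, in either direction, moved the same way. It was 978 in the main fit, 1626 without CD untreated replicate 4 and 514 without both replicates 2 and 3.

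The level of valve and atrial RNA differed from library to library. The valve score, the mean over members of a log2 level centred on all libraries, was 1.00, 2.37, 2.23 and 0.25 in untreated CD libraries and −1.63, 0.70, 0.41 and −1.56 in treated ones. The matrix score followed it, at −0.10, 0.55, 0.44 and −0.26 untreated and −0.49, −0.08, 0.00 and −0.63 treated. CD untreated replicates 2 and 3 were the highest in both scores. Without these 2 libraries, the number of matrix genes lower at an unadjusted p under 0.05 went from 14 to 0, with a median of −0.01, and that of valve genes went from 9 to 2, with a median of −0.69. Because the 2 libraries were picked for their high scores in these lists, a fall was largely set by that choice. Leaving out replicate 2 alone gave 1 matrix gene, replicate 3 alone gave 3, CD ertugliflozin replicate 4 alone gave 3, and CD untreated replicate 4 alone gave 23. Whole-table counts at that p, in either direction, also moved, from 978 in the main fit. They were 514 without both CD untreated replicates 2 and 3, 587 without replicate 2 and 662 without replicate 3. Without CD ertugliflozin replicate 4 the count was 997, and without CD untreated replicate 4 it was 1626. Leaving out 1 CD library gave 6 to 12 valve genes. With the valve and atrial scores as covariates, the matrix count was 0. The valve score itself differed between the groups, with a mean of 1.46 in untreated and −0.52 in treated CD libraries. Adjusting for it also takes away part of the group difference, so no conclusion on the matrix genes is drawn from that 0. The same fit says nothing of the valve and atrial genes themselves, since the scores are averages of those genes.

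In the main fit, 9 IRG, 7 GBP and 14 class I members had an unadjusted p under 0.05 in the higher direction, beside 3.04% of all genes. The IRG score was 0.01, −0.07, 0.11 and −0.09 in untreated and 0.47, 0.66, 0.60 and 0.34 in treated CD libraries, with no overlap. Without CD untreated replicates 2 and 3 these counts were 9, 7 and 11. With the covariates they were 9, 5 and 15. Counts in the interferon-gamma, type I and class II lists moved with single libraries, as given above. Single adjusted calls moved too: without CD untreated replicates 2 and 3 edgeR called 0 genes, and with the covariates it called Igtp alone.

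**Figure D5:**
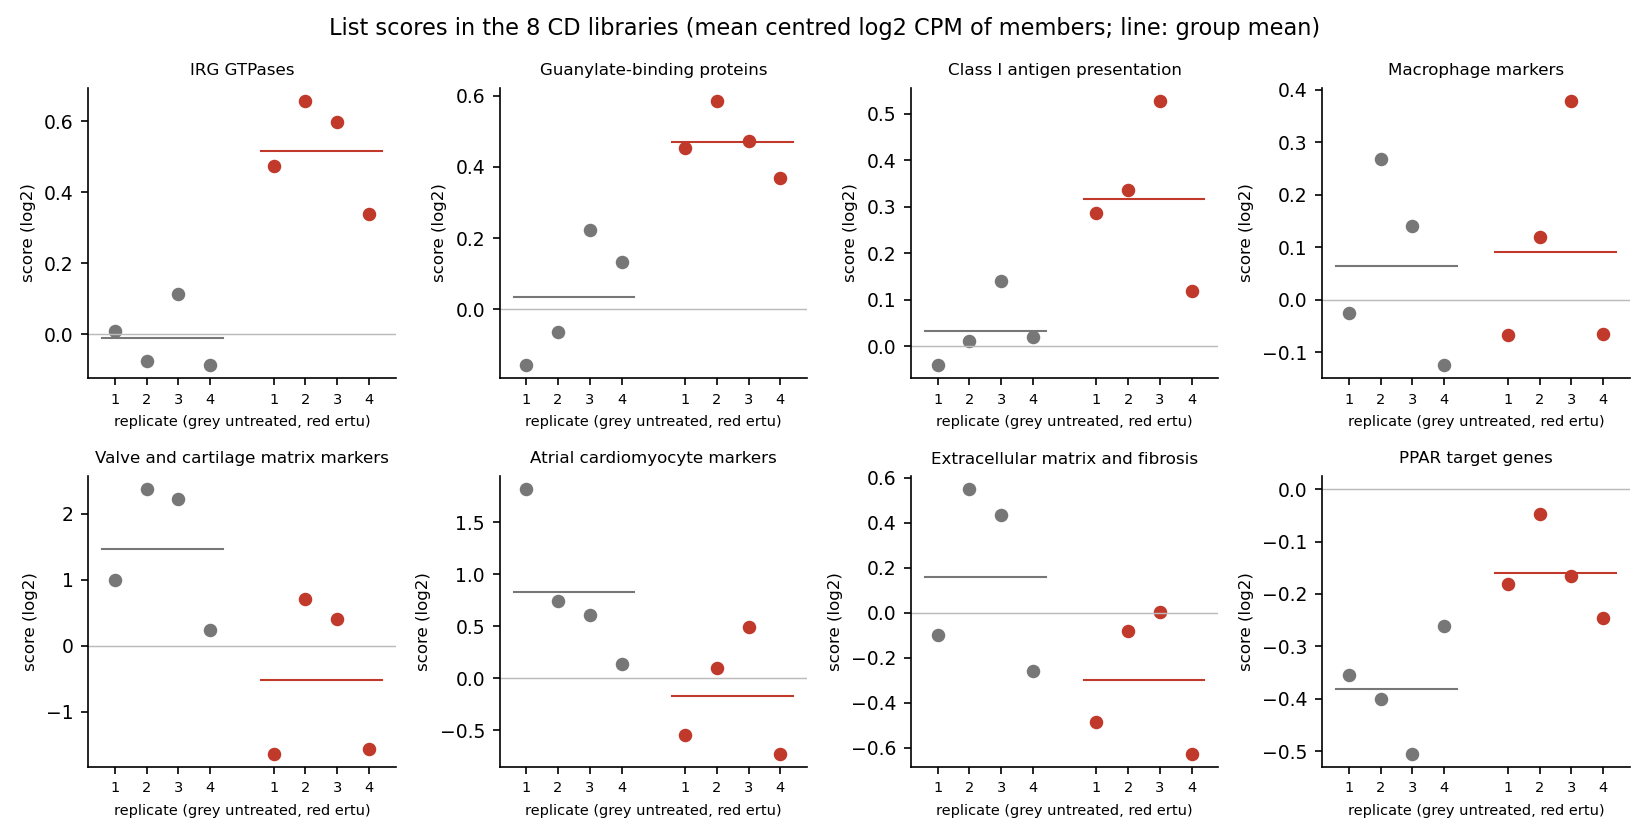
Scores of 8 gene lists (mean centred log2 level, y axis) in the 4 untreated and 4 ertugliflozin-treated CD libraries. IRG and GBP scores separate the groups, whereas valve and matrix scores spread widely within each group and are highest in CD untreated replicates 2 and 3.

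Genes of fat use, which are driven by the lipid-sensing PPAR receptors, had slightly higher means with the drug and no member past the adjusted threshold. In the PPAR target list 24 of 26 were tested, 21 were higher, 5 had an unadjusted p under 0.05 in that direction and 0 in the other, and 3 did not overlap, with a median of 0.09. The shares over all genes were 3.04% higher and 3.14% lower at that p, and 1.78% higher without overlap. Pdk4, the kinase that shuts off pyruvate dehydrogenase and so spares glucose, measured 426, 553, 470 and 647 CPM untreated. It measured 923, 1543, 945 and 743 CPM treated, without overlap, a log2 fold change of 0.99 ± 0.24 (edgeR adjusted p = 0.648). On HFHS its drug effect was 0.35 ± 0.24. Ehhadh, the peroxisomal bifunctional oxidation enzyme (mean 19.9 to 26.5 CPM, 0.41 ± 0.09), and Plin2, a lipid droplet coat protein (78.2 to 90.4 CPM, 0.21 ± 0.06, no overlap), were members of the same programme. Angptl4, an inhibitor of lipoprotein lipase, measured 6.98, 6.00, 5.93 and 14.7 CPM untreated and 22.3, 24.3, 30.9 and 3.89 CPM treated, so CD ertugliflozin replicate 4 was the lowest of the 8 (1.27 ± 0.52, unadjusted p = 0.0293). Ucp3, an uncoupling protein homologue of muscle mitochondria, had 0.96 ± 0.44.

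Ketone body genes showed little. Of 10 tested, 1 had an unadjusted p under 0.05, Acat1, the mitochondrial acetoacetyl-CoA thiolase (mean 800 to 876 CPM, 0.13 ± 0.05), and the median was 0.03. For the lists in this paragraph, 3.04% of all genes were higher at that p and 1.78% were higher without overlap. Branched-chain amino acid breakdown had 7 of 21 members higher at an unadjusted p under 0.05 and 0 lower, 19 of 21 with a higher mean and a median of 0.12. Its named members were the mutase Mut (0.17 ± 0.05), the dehydrogenase phosphatase Ppm1k (0.32 ± 0.10), Acadsb (0.15 ± 0.05) and the dehydrogenase subunit Bckdhb (0.17 ± 0.06). Complex I of the respiratory chain had 35 of 36 subunits with a higher mean, 5 at an unadjusted p under 0.05, 4 without overlap and a median of 0.08, among them Ndufb8 (516 to 560 CPM, 0.12 ± 0.05). These small shifts rested on few libraries. Without CD untreated replicates 2 and 3 the counts were 0 for amino acid breakdown, 0 for complex I and 3 for PPAR targets, and without CD ertugliflozin replicate 4 alone the complex I count was 0. That count was 1 without CD untreated replicate 2 or 3, 2 and 3 without CD ertugliflozin replicates 2 and 3, and 8 without CD untreated replicate 4. Leaving out 1 library gave 3 to 14 amino acid breakdown genes, with 3 without CD untreated replicate 2, CD untreated replicate 3 or CD ertugliflozin replicate 4, 11 without CD ertugliflozin replicate 3, and 14 without CD untreated replicate 4. The range was 3 to 7 for PPAR targets, with 3 without CD untreated replicate 2, CD untreated replicate 3 or CD ertugliflozin replicate 2. Part of these moves was shared by the whole table, where 978 genes had an unadjusted p under 0.05 in either direction. That number was 587 without CD untreated replicate 2, 662 without replicate 3, 514 without both and 1626 without replicate 4.

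Of the transport proteins discussed as direct targets of the drug class, Slc5a2, which encodes SGLT2 itself, had 0 to 3 reads in each CD library, 2 in all untreated and 3 in all treated. Slc5a1, which encodes SGLT1, had means of 1.42 and 0.863 CPM (−0.71 ± 0.33, unadjusted p = 0.0433), from 11 to 31 reads per library. Of the 16 tested transporters, 3 were lower at an unadjusted p under 0.05 and 0 higher (beside 3.14% and 3.04% of all genes), and the median was −0.01. The count of 3 was 1 without CD untreated replicate 3, CD ertugliflozin replicate 1 or CD ertugliflozin replicate 3.

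A few genes outside these lists ranked high by p without passing the adjusted threshold. Fgf16, a fibroblast growth factor made by heart muscle cells, measured 16.6, 15, 17.1 and 18 CPM untreated and 25.1, 20.2, 23.6 and 28.0 CPM treated, without overlap (0.54 ± 0.11, edgeR adjusted p = 0.278), and its drug effect on HFHS was 0.24. Camk2n2, an inhibitor of CaM kinase II (mean 0.890 to 1.65 CPM, 0.89 ± 0.23), and Chrna2, a nicotinic receptor subunit (2.99 to 4.22 CPM, 0.50 ± 0.17), were higher on average. Robo1, the receptor for Slit guidance proteins (4.31 to 2.61 CPM, −0.72 ± 0.16, edgeR adjusted p = 0.436), and Ptges, prostaglandin E synthase (2.43 to 1.28 CPM without overlap, −0.93 ± 0.22, edgeR adjusted p = 0.553), had the smallest p among genes that were lower on average. Below them, Ccdc157 (−0.28 ± 0.07), the cullin Cul7 (−0.26 ± 0.07), the DNA end-joining factor Paxx (−0.39 ± 0.10) and Zfp185 (−0.81 ± 0.22) had separate groups, and Chrdl1, a secreted inhibitor of bone morphogenetic proteins, had −2.07 ± 0.54.

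Library depth was 15897779 to 18701291 reads in untreated and 18278761 to 20293743 in treated CD hearts, and 14637669 to 21452212 on HFHS. The 10 most abundant genes took 12.1% to 13.1% of the reads of each CD library. No pair of libraries within a group agreed within sampling noise, and their chi-square statistics divided by the degrees of freedom were 2.44 to 9.88.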

How the data were processed

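Per the labels' protocols, poly(A) RNA of mouse left ventricles was sequenced from strand-keeping libraries. The deposited table holds whole read counts per Ensembl gene, not normalized, and a second deposited table holds rlog values, a log2 scale, which served only for an alternative. STAR 2.6.0c, DESeq2 1.22.1, FastQC 0.11.7, featureCounts (Subread 1.6.2) and the build mm10 are named, without their roles, per the submitters' processing notes. Not given in the sources used here are the annotation release, the strand setting and how multi-mapping reads were counted. Of 53764 gene IDs, 181 had no symbol (0.0192% to 0.0216% of the counts). The table holds 0 mitochondrially encoded genes.

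All 16 libraries entered 1 edgeR 4.0.16 quasi-likelihood fit (R 4.3.3) with a mean for each of the 4 groups, filterByExpr and TMM scaling, and p-values were Benjamini-Hochberg adjusted over 15841 genes. A pooled fit shares its estimate of spread over all groups. Contrasts were the drug effect on CD, the drug effect on HFHS and their difference. The code was tested on simulated counts. Log2 CPM for list scores used a prior count of 2. Groups were taken from the sample titles. Unadjusted p-values are given to describe lists, not as calls, and no test was made of a list.

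The members and lists were chosen with earlier results of these data known. Genes named are those past the threshold, the 15 with the smallest p in each direction among genes averaging 1 CPM or more, up to 4 per described list, genes of known interest for the drug, and the 3 with the smallest p for the difference; of these, the text gives those its results turn on, and a few are not reported here. Outside this rule, Irgm1, Gm12185, Gm12250, F830016B08Rik, BC023105 and Ifi47 were named after their values were seen. Alternatives covered scaling, filters, DESeq2 1.42.0, limma 3.58.1, the replicate number as a block, the CD libraries alone, leaving out libraries, and valve and atrial scores as covariates.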

Additional observations from a re-analysis of the deposited data

Results flagged for a closer look

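The drug effect differed between the diets for 3 genes, by a test of the difference itself (edgeR, adjusted p = 0.0219 for each): 1.29 for Iigp1, 1.38 for Tgtp2 and 1.13 for Igtp on the log2 scale, CD minus HFHS.

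For 73 genes named in the text, each group of 4 CD libraries was searched for a library that stood apart, by a test that flags about 1 in 20 groups by chance. Of 166 groups examined, for genes and list scores, 10 held such a library. CD untreated replicate 1 was the highest of its group for the atrial genes Myl4 (285 CPM, the others 9.04 to 30.6) and Sln (65.6 CPM, the others 1.79 to 4.06). CD untreated replicate 4 was the lowest for Dkk3 (12.2 CPM, the others 59.8 to 63.2) and the highest for Angptl4 (14.7 CPM, the others 5.93 to 6.98). CD untreated replicate 2 was the lowest for Slc5a1 (0.981 CPM, the others 1.51 to 1.61).

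Among treated libraries, CD ertugliflozin replicate 4 was the lowest for Gbp3 (27.3 CPM, the others 32.4 to 33.2). It was the highest for Chrna2 (6.32 CPM, the others 3.29 to 3.80) and Hspa1b (3.74 CPM, the others 0.939 to 1.41). CD ertugliflozin replicate 2 was the highest for Ehhadh (31.2 CPM, the others 24.5 to 25.5), and replicate 3 the lowest for Paxx (7.83 CPM, the others 9.05 to 9.27).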

How the results depend on the processing

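No alternative called a gene lower on CD, and Tgtp2, Iigp1 and Igtp kept a fold change above 0 in all 20 alternatives. The count of 3 genes higher on CD became 10 with DESeq2, 1 (Gbp4) with the 8 CD libraries alone, 0 without both CD untreated replicates 2 and 3, and 1 (Igtp) with valve and atrial scores as covariates. It ranged from 0 to 6 when single CD libraries were left out. The count of 3 for the difference between diets became 6 with no filter on low counts and 18 with DESeq2. The edgeR adjusted p of Iigp1 with no filter was 0.11. The cause of these moves was not tested. With the covariates, log2 fold changes of 0.052 (Myl4), 0.469 (Sln) and 0.095 (Dkk3) follow from the fit's construction, because these genes are members of the atrial score, and say nothing of stability.

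Whether replicate numbers pair the libraries was not settled. Same-numbered deviations correlated at 0.0457 to 0.189, with 2 of 4 pairs over 0.1, and different-numbered ones at −0.194 to 0.150. Of the CD ertugliflozin libraries, 2 of 4 matched their own number best. With the replicate number as a block, 3 genes were higher on CD (Tgtp2, Iigp1 and Fgf16, the last at an adjusted p of 0.00824), Igtp had an adjusted p of 0.0823, and 2 genes differed between diets.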

Other observations

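Of 17 circadian clock genes, 0 had an unadjusted p under 0.05 in either direction, and of 16 tested NF-kB-linked inflammation genes, 0 did, with a median log2 fold change of −0.02. Inflammation driven by NF-kB is a separate arm of immunity from the interferon response described above. At the same unadjusted p, beside 3.04% of all genes, enzymes of mitochondrial fatty acid oxidation had 3 of 21 higher and 0 lower (median 0.07), those of the TCA cycle 2 of 18 higher (median 0.05), and subunits of ATP synthase 1 of 15 higher (median 0.08). Without CD untreated replicates 2 and 3 these counts were 1, 0 and 0, while the count over all genes, in either direction, fell from 978 to 514. Pyruvate dehydrogenase and its regulators, which set the entry of glucose carbon into the TCA cycle, had 3 of 14 higher and 1 lower, and without those 2 libraries 1 higher and 1 lower.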
